A study of Homo sapiens with 23 samples.

Results

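The sites described here are YY1 peaks at promoters that carry no OCT4 peak. They were selected on measured values: a peak of YY1 replicate 1 without doxycycline had to share at least 1 bp with a peak of replicate 2, its summit had to lie within 1000 bp of a transcription start site (TSS) of GENCODE on hg19, and no OCT4 peak of the library without doxycycline could overlap it. Of the 56370 peaks of YY1 replicate 1, 40071 overlapped a replicate 2 peak, 12618 of those on assembled chromosomes had their summit near a TSS, and 6816 of them lacked OCT4. Removing 2 peaks that overlapped a de-repressed SVA left 6814 sites at 6239 genes. For comparison, the same steps gave 5798 promoter sites with OCT4, 21158 distal sites without OCT4 and 6067 distal sites with it.

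The cells were NCCITs, a human embryonal carcinoma line with pluripotent features. The engineered SCi-NCCITs carried dCas9-KRAB, a catalytically dead Cas9 joined to a repressor domain, under a tetracycline-inducible promoter on a piggyBac transposon. They also carried a pair of constitutive sgRNAs against SVA retrotransposons, and were grown from stable clones. The paper states that the guides also target LTR5Hs elements, and that they match most annotated SVAs. The groups were SCi-NCCITs without doxycycline and SCi-NCCITs given 2 µg/mL doxycycline for 72 hours, and all of them carried the transgene and both guides. YY1 was profiled in 2 libraries of each group, OCT4 in 1, H3K9me3 in 2 and RNA in 3, and 1 further H3K9me3 library came from parental NCCITs. No group received doxycycline without the guides or without dCas9-KRAB, so an effect of the drug and an effect of the induced repressor cannot be told apart. By RNA, all 9 markers of pluripotent cells were present in every library, with a summed level of 1674 to 1856 TPM (transcript abundance scaled by length and library size) without and 1285 to 1441 TPM with doxycycline, and 8 markers of other cell types summed to 11.5 to 15.7 and 13.8 to 16.3 TPM.

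YY1 is a ubiquitous zinc finger protein that binds DNA in a sequence-specific manner and can activate or repress transcription. It is known as a factor of housekeeping promoters, where it often binds close to the TSS, and as a protein that helps hold promoters and enhancers together. OCT4, the product of POU5F1, is a core factor of pluripotent cells and binds mainly at enhancers.

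The following stretches of 29 bases, read from hg19 and written 5′ to 3′ on the strand of the gene, show how the YY1 motif lies in some of these promoters. Capitals mark AANATGGC, or its reverse complement where the motif runs against the gene. The first are the sites with the highest mean fold enrichment without doxycycline. All of them lie upstream of the TSS of the canonical transcript, and ZNF175 holds no match within 100 bp of its summit, so its stretch is centred on the summit.

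CXXC1 (chr18:47814320-47814348, minus strand): cagtaggtgcaGCCATGTTgcctgtacgt
ZNF615 (chr19:52511484-52511512, minus strand): acgagggcgcgGCCATCTTgcatctgcgc
ZNF175 (chr19:52074335-52074363, plus strand): atccgtatgggtgcggccatgccgtcctc
POGLUT1 (chr3:119187791-119187819, plus strand): cggctcccggGCCATCTTtgtgcggggcc
CCDC174 (chr3:14693051-14693079, plus strand): cgcccttctcAAGATGGCgcccacaccaa

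In the next set the motif is read in the direction of the gene and its ATG is the annotated start codon of the canonical transcript, in exon 1. These genes encode an RNA-binding protein of the spliceosome (LSM3), a proteasome subunit (PSMB6), a translation initiation factor (EIF4B) and a calcium channel subunit (CACNA2D2).

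LSM3 (chr3:14220348-14220376, plus strand): cagggtttgaAACATGGCggacgacgtag
PSMB6 (chr17:4699477-4699505, plus strand): ccggaggagaAAGATGGCggctaccttac
EIF4B (chr12:53400255-53400283, plus strand): tccctctcccAACATGGCggcctcaggtg
CACNA2D2 (chr3:50540840-50540868, minus strand): tcttgaatggaAACATGGCggtgccggct

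The last set comes from genes of the respiratory chain, in which the motif lies against the gene, in exon 1.

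ATP5F1B (chr12:57039733-57039761, minus strand): acccggactacGCCATGTTggggtttgtg
COX8A (chr11:63742079-63742107, plus strand): ggccagcgcaGCCATTTTggcttcctgac
UQCRFS1 (chr19:29704011-29704039, minus strand): gagcggctgtcGCCATGTTgtcggtagca

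Most of the sites were assigned to protein-coding genes. The gene of each site was the one with the nearest protein-coding TSS within 1000 bp, or the nearest TSS of any gene where there was none. This gave 5402 sites of protein-coding genes (79.3%), 864 of lncRNAs (12.7%) and 254 of processed pseudogenes, and 536 genes had 2 or more sites. At 599 sites (8.79%), protein-coding TSSs lay within reach on both strands. The peaks were 724 bp wide in the median, with an interquartile range of 475 to 1146 bp. In the canonical transcript of the 5402 protein-coding sites, the summit lay upstream of the gene at 32.8%, in an intron at 30.0%, in the 5′ UTR at 18.5% and in coding sequence at 17.7%. Of the 4910 sites with a canonical TSS within 1000 bp, 1885 (38.4%) had their summit within 100 bp of it, and the median summit lay 34 bp downstream. At the edge of the distance limit, the 223 sites in the last 100 bp inside it had a median fold enrichment of 5.32 and 6.15 in the respective YY1 libraries without doxycycline, and the 252 YY1 sites without OCT4 in the first 100 bp beyond it had 5.54 and 5.92.

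Without doxycycline, the median fold enrichment of YY1 was 6.44 in replicate 1 and 6.89 in replicate 2, with interquartile ranges of 4.66 to 11.8 and 4.84 to 12.5. These libraries chose the sites, so their values are a description. With doxycycline, the sites that kept a peak had medians of 8.35 and 9.15. The medians of all YY1 sites with a peak in the 4 libraries were 6.29 and 7.45 without and 8.002 and 9.83 with doxycycline, so fold enrichment was higher in both doxycycline libraries over all YY1 sites as well. Fold enrichment is the seventh column of the peak lists, read by the usual order of that format, since the peak caller is not given in the sources used here and the lists have no header. The lists give no read counts, and the depth of the ChIP-seq libraries is unknown.

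**Figure D1:**
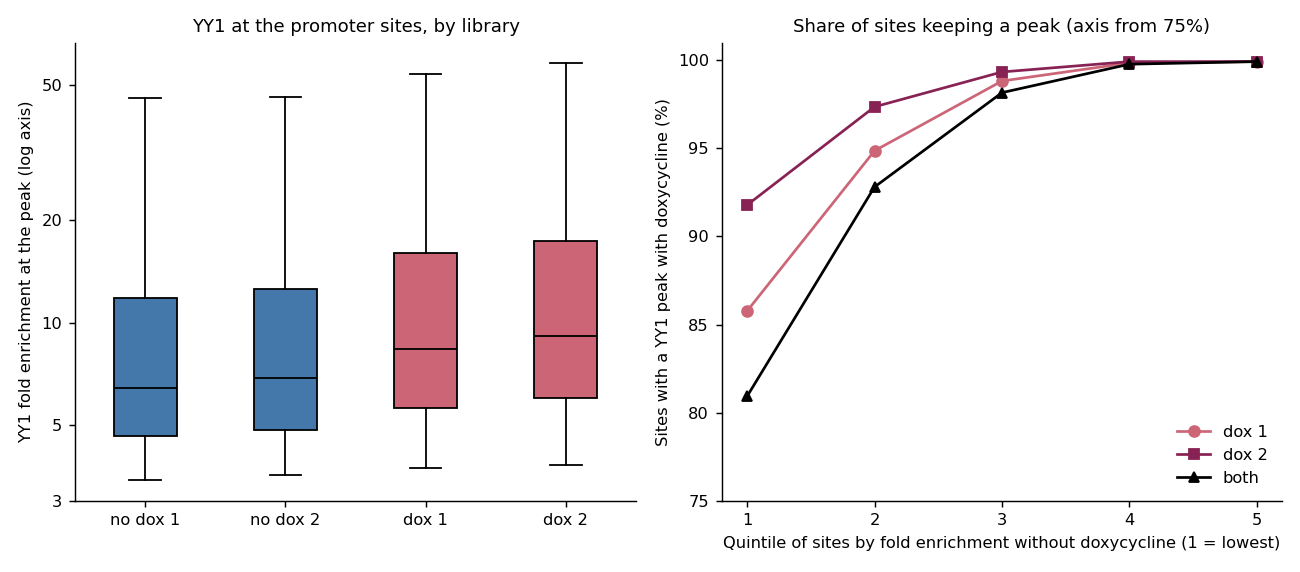
Left, YY1 fold enrichment at the promoter sites without OCT4 in each YY1 library, on a log axis (box, quartiles; line, median; whiskers, 5th and 95th percentile; sites with a peak in that library), where the medians are 6.44 and 6.89 without and 8.35 and 9.15 with doxycycline. Right, percent of sites with a peak in doxycycline replicate 1, replicate 2 and both, by quintile of the mean fold enrichment without doxycycline, where the share in both rises from 80.9 to 99.9% (the axis starts at 75%).

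YY1 peaks were kept at nearly all of these promoters after doxycycline. A peak overlapped 6531 sites (95.8%, 95% Wilson interval 95.3 to 96.3%) in replicate 1 and 6655 (97.7%, 97.3 to 98.0%) in replicate 2. Both libraries had a peak at 6427 sites (94.3%, 93.7 to 94.8%) and neither had one at 55 (0.807%, 0.621 to 1.05%). Intervals here cover counting error over sites only. Both peaks were kept at 96.8% of promoter sites with OCT4 (96.4 to 97.3%), at 93.4% of distal sites without OCT4 (93.1 to 93.8%) and at 92.2% of distal sites with it (91.5 to 92.8%). When the choice was turned round, so that 15706 promoter sites without OCT4 were picked from the libraries with doxycycline, 72.2% of them had a peak in both libraries without it. That choice also used the OCT4 list with doxycycline, which is shorter (23352 peaks beside 50775) and so removes fewer sites. The YY1 lists with doxycycline hold more peaks (82005 and 115673) than those without it (56370 and 76098). With the same number of peaks from each YY1 list, by the strongest p-values, the share with both peaks was 84.7%.

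The sites that lost peaks were mostly weak ones. The quintiles come from the libraries that chose the sites, and a peak near the calling limit is easily missing from another list. The trend is therefore a description. In the lowest quintile of mean fold enrichment (2.14 to 4.67), both doxycycline libraries had a peak at 80.9% of sites, in the next quintile at 92.8%, and in the upper quintiles at 98.2, 99.8 and 99.9%. Of the 55 sites without a peak in either doxycycline library, 46 were in the lowest quintile, 8 in the next and 1 in the highest. The highest was a replicate 1 peak upstream of IWS1, a transcription elongation factor, with a fold enrichment of 4.17 in replicate 1, where the overlapping replicate 2 peak had 67.0. The next were MRGPRX3 (5.65 and 5.53) and TESMIN (4.53 and 5.67), a testis metallothionein-like gene. The summits at IWS1, MRGPRX3 and TESMIN lay more than 1000 bp from the canonical TSS, near the start of another transcript. The shares at different distances from the de-repressed SVAs had overlapping intervals. Distances to the other targets of the guides, LTR5Hs elements and further SVAs, were not measured. Both peaks were kept at 70 of 74 sites under 20 kb from an SVA (94.6%, 86.9 to 97.9%), at 93.6% of the 388 sites from 20 to 100 kb (90.7 to 95.6%) and at 94.4% of the 6352 farther away (93.8 to 94.9%).

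At the strongest sites the enrichment in every library was far above the median. At CXXC1, a CpG-binding subunit of a histone H3K4 methyltransferase complex, it was 174.6 and 159.6 without and 142.5 and 130.7 with doxycycline. ZNF615, a KRAB zinc finger gene, had 159.3 and 133.8 without and 135.9 and 125.3 with doxycycline, and ZNF175 had 133.4 and 152.6, then 129.9 and 129.4. The values at POGLUT1, a glycosyltransferase that modifies Notch, were 151.5 and 133.5, then 128.5 and 115.3, and those at CCDC174 were 141.7 and 142.3, then 129.1 and 127.8. At 4 of the 5, both doxycycline values were below both values without doxycycline, and at ZNF615 1 of them lay between. The sites were taken for their high values without doxycycline, and the change is given with no test.

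To compare sites across libraries, the log2 fold enrichment of each library was centred on the median of all YY1 sites with 4 peaks. Fold enrichments given for named sites are not centred, so they include the rise over all YY1 sites. On this scale the median difference, doxycycline minus no doxycycline, was −0.08 at the 6427 sites with 4 peaks, with quartiles of −0.26 and 0.10. The SD of the difference between replicates was 0.38 both without and with doxycycline, and 89.2% of the sites changed by less than 0.5. Both doxycycline values lay below both others at 1234 sites (19.2%, beside 17.1% of all YY1 sites) and above both at 486 (7.56%, beside 10.6% of all YY1 sites). At promoter sites with OCT4 the median difference was −0.12, and at distal sites without OCT4 it was 0.01. Replicates correlated across the sites with a Pearson r of 0.89 without and 0.90 with doxycycline, over sites of the same libraries, which are not independent replicates.

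AANATGGC, searched on both strands within 100 bp of the summit, was present at 1993 of the 6814 sites (29.2%, 28.2 to 30.3%). The share was 23.1% at promoter sites with OCT4 (22.03 to 24.2%) and 50.6% at distal sites without OCT4 (49.96 to 51.3%), and these intervals do not overlap that of the sites described here. In windows of the same length centred on all 19881 protein-coding TSSs it was 7.10%, and at the 8158 of them with no YY1 peak within 1000 bp 1.92%. Within the sites, the share rose with enrichment, from 12.2% in the lowest quintile to 19.4, 23.1, 30.2 and 61.3% in the highest. Sites with the motif had a median mean fold enrichment of 11.3 and those without it 6.07. In the highest quintile, the match lay a median of 8 bp from the summit and 87.1% of the matches were within 25 bp of it. By kind of gene, it was present at 25.9% of protein-coding sites, 36.7% of lncRNA sites and 50.9% of the 377 pseudogene sites. A match is a description of the sequence and not a measured contact.

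**Figure D2:**
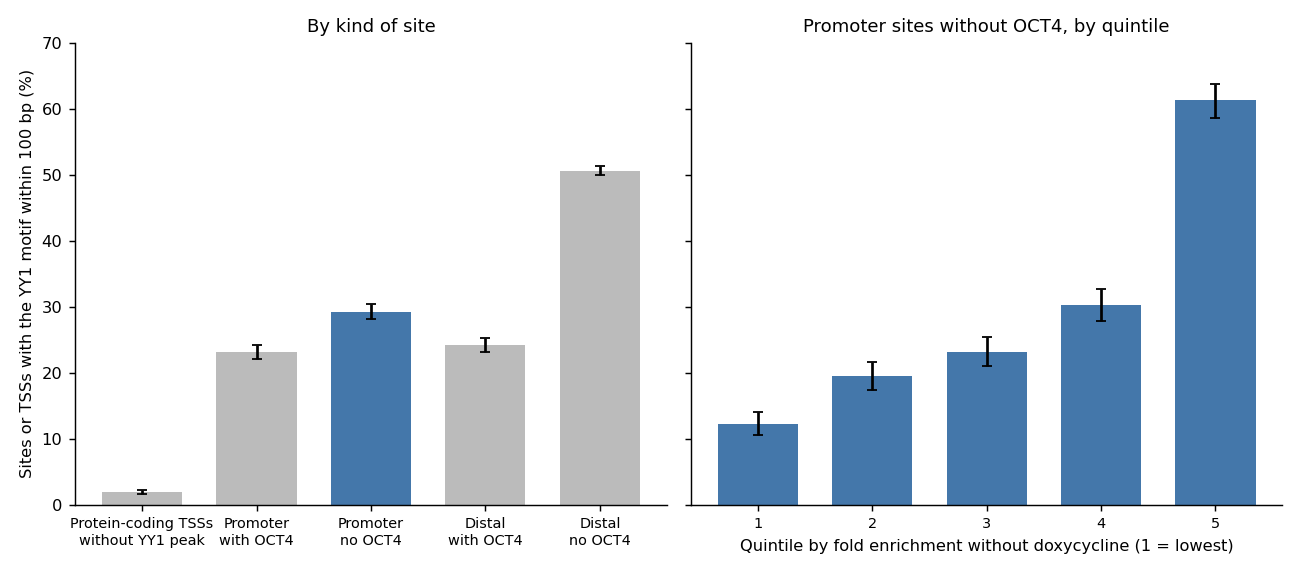
Percent of sites with AANATGGC within 100 bp of the YY1 summit on either strand, with 95% Wilson intervals, by kind of site (left; for TSSs without YY1 the window is centred on the TSS) and, for promoter sites without OCT4, by quintile of fold enrichment (right). The share at promoter sites without OCT4 is 29.2%, and it runs from 12.2% in the lowest to 61.3% in the highest quintile.

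Other motifs were searched in the same windows. GGGCGG, the GC box, was present at 37.7% of the sites and 49.4% of promoter sites with OCT4, CCAAT, the core of the NF-Y motif, at 20.3 and 16.4%, and CCGGAAG, an ETS motif, at 7.26 and 9.30%. Rarer were GCATGCGC, the NRF1 motif (2.03 and 2.07%), TGACGTCA, the cAMP response element (1.04 and 1.26%), and ATGCAAAT, the octamer bound by OCT4 (0.455 and 0.793%). In the highest quintile of fold enrichment, 13.0% of the sites held the ETS motif, beside 4.62% in the lowest. The median GC content of the windows was 61.2%, between 67.2% at promoter sites with OCT4 and 47.8% at distal sites without it, and the CpG ratio, observed over expected, was 0.70 in the median, where the other promoter sites had 0.84.

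The motif had a preferred direction and place. In 1341 sites with a match and a canonical TSS within 1000 bp, it was read in the direction of the gene in 846 (63.1%, 60.5 to 65.6%) and against it in 495. From 1 to 100 bp downstream of the TSS, 388 matches were sense and 116 antisense. Just upstream, from −100 to 0 bp, the order was the other way, with 51 sense and 73 antisense. Where protein-coding TSSs lay on both strands, 108 of 133 matches were sense to the assigned gene (81.2%, 73.7 to 86.9%). The same lean is present around all 19881 protein-coding TSSs, whether or not YY1 was bound, with 849 sense and 246 antisense matches from 1 to 100 bp downstream. From −100 to 0 bp there were 122 sense and 233 antisense, so the upstream order is shared as well. Every match was counted around these TSSs, and only the match nearest the summit at the sites.

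**Figure D3:**
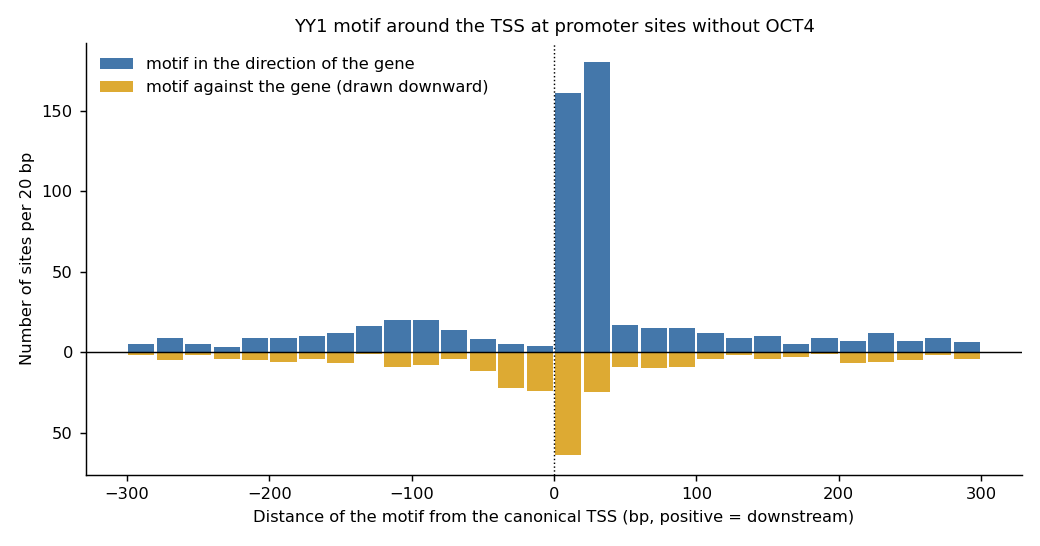
Number of sites by the position of the AANATGGC match nearest the summit, in bins of 20 bp from the canonical TSS (negative values are upstream), with matches in the direction of the gene drawn upward and those against it downward. Sense matches gather in the first 40 bp downstream, 161 and 180 of them in the respective bins, where 64 and 25 are antisense.

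Many of the sense matches were start codons. Of the 845 protein-coding sites with a sense match, 272 (32.2%, 29.1 to 35.4%) had their ATG on the annotated start codon of a canonical transcript. In the whole annotation, 907 of 19647 canonical start codons (4.62%) lie in AANATGGC, and 695 of those (76.6%) lay in a YY1 peak of replicate 1 without doxycycline, 322 of them in the sites described here. Among start codons within 1000 bp of their TSS, 661 of 725 with the motif (91.2%) and 5669 of 12678 without it (44.7%) lay in such a peak. Start codons in the sites held the motif at 12.2% (11.03 to 13.5%) and those in promoter sites with OCT4 at 10.97% (9.93 to 12.1%), intervals that overlap.

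H3K9me3, the repressive mark that KRAB proteins recruit, was rare at these promoters. Its peaks overlapped 123 sites (1.81%) in parental NCCITs, 336 (4.93%) and 216 (3.17%) in the SCi-NCCIT replicates without doxycycline, and 233 (3.42%) and 226 (3.32%) in those with it. The doxycycline values lay within the range of the values without it. A peak in both doxycycline libraries and neither other one was found at 7 sites, and the reverse at 17. At least 1 SCi-NCCIT library had a peak at 434 sites (6.37%, 5.81 to 6.97%), beside 22.1% of distal sites without OCT4. At promoter sites with OCT4 this share was lower still, 4.86% (4.34 to 5.45%), so the rarity is not particular to the sites described here. By kind of gene, this share was 3.79% at protein-coding sites, 11.7% at lncRNA sites and 23.1% at pseudogene sites. OCT4 with doxycycline, measured in 1 library, had a peak at 24 of the sites (0.352%) and at 15.02% of the promoter sites with OCT4. The latter were chosen for an OCT4 peak without doxycycline. The OCT4 list with doxycycline is also shorter, with 23352 peaks beside 50775 without it, so these shares do not measure a loss of binding.

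The genes of the sites that had an RNA value were for the most part expressed. Estimated counts were summed per gene. The totals ran from 14683302 to 43443251 without and from 44680430 to 47862233 with doxycycline, and the lowest was that of replicate 1 without doxycycline. Of the 6239 genes, 5289 had an RNA value, and their median level was 14.4, 14.8 and 14.2 TPM in the libraries without doxycycline and 13.7, 13.5 and 14.6 TPM in those with it. A value was present for 4859 of 4877 protein-coding genes of the sites and for 59 of 819 lncRNA genes. Shares that reached 1 TPM are over genes with a value. Without doxycycline, 82.6% of the 5289 genes reached 1 TPM. The genes with only promoter sites that carried OCT4 had a mean of 23.9 TPM in the median, and 92.8% reached 1 TPM. For 6926 protein-coding genes without a YY1 peak these were 0.111 TPM and 25.2%. By quintile of fold enrichment, the median of the genes was 10.8, 10.5, 12.3, 15.5 and 22.7 TPM. In bulk RNA, fewer cells of a type and less RNA per cell cannot be told apart.

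With doxycycline, the genes of the sites rose and fell in nearly equal number. Of the 6239 genes, 4735 passed edgeR's filter and were tested, and 482 were higher and 408 lower at an adjusted p under 0.05 (edgeR's quasi-likelihood test, Benjamini-Hochberg adjustment over all 16371 genes tested). This is 18.8% of those tested, beside 17.5% of all genes. Higher genes made up 10.2%, beside 8.97%, and lower genes 8.62%, beside 8.48%. Their median log2 fold change was −0.0015, where that of all genes tested was −0.0025. Called changes of at least 2-fold numbered 23 up and 37 down of the 4735 genes, beside 153 and 205 of all 16371 genes tested. The summed pluripotency markers were lower in each doxycycline library than in any without it, and the part of this difference in these changes was not tested. The counts depended on single libraries. Without replicate 2 without doxycycline they were 206 and 223, without replicate 3 without doxycycline 258 and 270, without doxycycline replicate 1 237 and 270, and without doxycycline replicate 2 207 and 197. The labels do not say whether RNA replicates came from separate cultures, and p-values then measure only the spread between these libraries.

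Of 4017 tested genes of promoter sites with OCT4 alone, 18.6% were called, 309 higher (7.69%) and 439 lower (10.9%). Higher genes made up 41.3% of those calls and 54.2% of the calls of genes with sites without OCT4, and the difference was not tested. The latter genes include 676 tested ones that also had a promoter site with OCT4, of which 51 were higher (7.54%) and 102 lower (15.1%). By quintile of YY1 enrichment, the share of member genes called was 21.3, 20.4, 19.0, 17.9 and 16.5% from lowest to highest. Genes with AANATGGC at a site were called at 16.8%, and those without it at 19.6%. The following counts stand beside 8.97% higher and 8.48% lower among all genes tested. Where YY1 was lower in both doxycycline libraries, 90 genes were higher (9.25%) and 104 lower (10.7%) of 973 tested, and where it was higher in both, 37 were higher (11.5%) and 19 lower (5.88%) of 323. The 43 tested genes of sites without a YY1 peak with doxycycline had 6 higher (13.95%) and 4 lower (9.30%). Across 4521 genes, the change of YY1 and that of RNA correlated with a Pearson r of 0.07 and a Spearman rho of 0.04, over genes of the same libraries, which is a description and no finding. Genes under 20 kb from a de-repressed SVA had 4 higher (7.14%) and 11 lower (19.6%) of 56 tested, those from 20 to 100 kb 23 (8.04%) and 29 (10.1%) of 286, and those farther away 455 (10.4%) and 368 (8.38%) of 4393. These distances do not cover the other targets of the guides, LTR5Hs elements and further SVAs.

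The factors themselves were checked. YY1 had 136.5, 142.0 and 141.1 CPM (counts scaled to the library size) without and 132.5, 124.9 and 133.2 CPM with doxycycline, with a difference of −0.10 on the log2 scale (standard error 0.052; edgeR, adjusted p = 0.202), and its own promoter carried a YY1 site with OCT4. The groups do not overlap, but the difference did not pass the test. YY2, a retrogene copy of YY1, had 0.712 to 1.20 CPM in the 6 libraries, with a log2 fold change of −0.0014 (adjusted p = 0.998). POU5F1 had 239.9, 177.4 and 170.9 CPM without and 198.9, 169.6 and 169.6 CPM with doxycycline, with overlapping groups and a log2 fold change of −0.12 (adjusted p = 0.527). ZNF10, the usual source of the KRAB domain, had 10.0, 11.8 and 10.7 CPM without and 361.9, 373.6 and 458.9 CPM with doxycycline (log2 fold change 5.19, adjusted p = 5.59e-08), and reads of the gene and of a KRAB transgene derived from it cannot be told apart in these counts.

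The 11 gene lists differed in how often they had a site without OCT4. Of all 15199 protein-coding genes tested for RNA, 4630 had such a site, and no list was tested against this share. Translation initiation factors, cytosolic ribosomal proteins, aminoacyl-tRNA synthetases and the spliceosome core lay near it. Nuclear-encoded respiratory chain subunits, which build the complexes of oxidative phosphorylation, led with 43 of 76 genes (56.6%) and a median fold enrichment of 22.5. Proteasome subunits had a site at 15 of 33 genes, Polycomb proteins and YY1 partners at 16 of 38, mitochondrial ribosomal proteins at 32 of 78 (median fold enrichment 22.2), and translation initiation factors at 13 of 39. Cytosolic ribosomal proteins had one at 26 of 79 genes and a promoter site with OCT4 alone at 44. For aminoacyl-tRNA synthetases the sites without OCT4 numbered 12 of 37, for the spliceosome core 15 of 52, for INO80, a chromatin remodeller that binds YY1, 4 of 15, for cohesin and CTCF 3 of 15, and for pluripotency genes 5 of 27.

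Among respiratory chain genes with a site, all calls were rises. Of 43 tested, 20 were higher and none lower with doxycycline (edgeR, adjusted p under 0.05), beside 8.97% higher and 8.48% lower among all genes tested. The other 23 did not pass the test, and the 43 log2 fold changes ran from −0.53 to 0.59, with a median log2 fold change of 0.21 beside −0.0025 for all genes tested. The whole list moved alike, with 28 of 76 genes higher and none lower and a median of 0.20. Of the 43 sites, 42 kept both YY1 peaks with doxycycline and 20 held AANATGGC. Without replicate 2 or 3 without doxycycline the number of higher genes fell to 9 and 12, and without doxycycline replicate 1 or 2 to 10 and 8, with none lower in any of these fits.

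ATP5F1B, the catalytic beta subunit of ATP synthase, had 1284, 1291 and 1286 CPM without and 1456, 1568 and 1399 CPM with doxycycline. All 3 doxycycline values were higher, and the log2 fold change was 0.20 (standard error 0.056, edgeR adjusted p = 0.0402), a call that was lost in 5 of the 6 fits with 1 library left out, all but that without doxycycline replicate 3. COX8A, a subunit of cytochrome c oxidase, had 212.3, 184.2 and 196.1 CPM, then 247.3, 272.5 and 237.0 CPM (log2 fold change 0.35, standard error 0.072, adjusted p = 0.0105). UQCRFS1, the Rieske iron-sulfur protein of complex III, rose from 73.4, 74.7 and 79.2 CPM to 111.0, 127.4 and 104.2 CPM (log2 fold change 0.59, adjusted p = 0.00118). UQCRQ, another complex III subunit, went from 36.8, 33.2 and 35.7 CPM to 49.6, 51.4 and 47.7 CPM (log2 fold change 0.50, adjusted p = 8.16e-04). YY1 fold enrichment at the UQCRFS1 site was 23.3 and 21.7 without and 39.4 and 40.0 with doxycycline, and at the UQCRQ site 5.43 and 3.53, then 4.30 and 7.22.

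**Figure D4:**
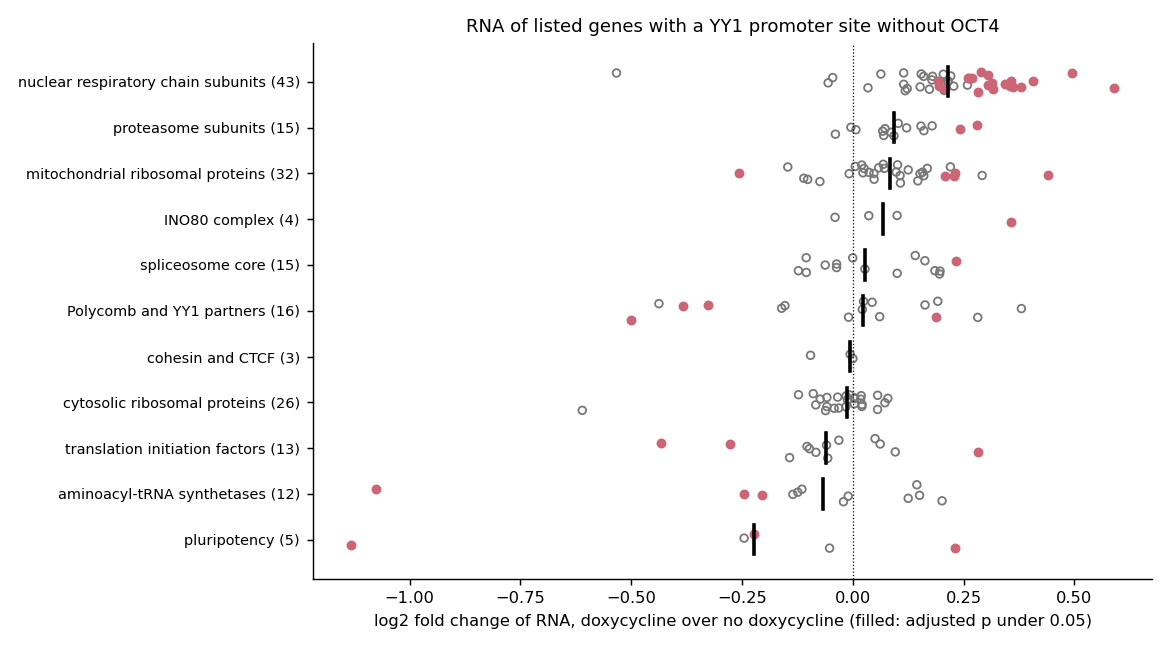
Log2 fold change of RNA, doxycycline over no doxycycline, for listed genes with a YY1 promoter site without OCT4 (1 point per gene; filled, adjusted p under 0.05 by edgeR; bar, median of the list; number tested in brackets; vertical scatter within a row has no meaning). Respiratory chain subunits have a median of 0.21 with 20 of 43 filled to the right, while none of the 26 cytosolic ribosomal protein genes is filled.

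The counts of the other lists stand beside the same shares of all genes tested, 8.97% higher and 8.48% lower. None of the 26 cytosolic ribosomal protein genes with a site was called (edgeR; median log2 fold change −0.01), and RPS2, the most abundant by TPM, had 3352, 2681 and 3051 CPM without and 3190, 2988 and 2927 CPM with doxycycline. Of 32 mitochondrial ribosomal protein genes, 4 were higher and 1 lower, MRPL33 among the former (32.2 ± 2.00 to 43.7 ± 1.84 CPM, SD, n = 3; adjusted p = 0.00248 from edgeR) and MRPL15 the latter (log2 fold change −0.26, adjusted p = 0.0196), a call lost without replicate 2 or 3 without doxycycline and without doxycycline replicate 3. In the whole list 14 of 78 were higher and 1 lower. Proteasome genes had 2 higher and none lower of 15. They were PSMB5, a catalytic subunit (log2 fold change 0.28, adjusted p = 0.0305), whose site had fold enrichments of 143.0 and 139.0 without and 131.9 and 128.1 with doxycycline, and SEM1 (0.24, adjusted p = 0.0207), and in the whole list 3 of 33 were higher. Without replicate 2 or 3 without doxycycline, or without doxycycline replicate 1 or 2, the number of higher genes with a site was 1 for mitochondrial ribosomal proteins and 0 for the proteasome in each fit. Among 12 aminoacyl-tRNA synthetase genes, 3 were lower and none higher, and in the whole list 12 of 37 were lower and 1 higher. MARS2, the mitochondrial methionyl-tRNA synthetase, fell from 55.9, 59.4 and 60.3 CPM to 28.3, 28.5 and 26.7 CPM (log2 fold change −1.07, adjusted p = 5.03e-06), and TARS1, for threonine, by 0.24 on the log2 scale (adjusted p = 0.00999).

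Of 16 Polycomb and partner genes, 1 was higher and 3 were lower, and in the whole list 1 and 8 of 38. EZH2, the H3K27 methyltransferase of PRC2, fell from 54.7, 56.3 and 53.1 CPM to 40.2, 41.8 and 43.8 CPM (log2 fold change −0.38, adjusted p = 0.00220 from edgeR), and SFMBT2, a Polycomb protein related to the fly partner of the YY1 homolog, by 0.33 on the log2 scale (adjusted p = 0.00567). PCGF2, with overlapping groups, was not called (log2 fold change −0.44, adjusted p = 0.0770). Initiation factors had 1 higher and 2 lower of 13, and 2 and 6 of 39 in the whole list. EIF4B, whose start codon lies in the motif printed above, fell from 1119, 1161 and 1125 CPM to 866.0, 846.6 and 811.1 CPM (log2 fold change −0.43, adjusted p = 6.04e-04), and EIF1AX by 0.28 on the log2 scale (adjusted p = 0.0159). The spliceosome had 1 higher of 15, TXNL4A (log2 fold change 0.23, adjusted p = 0.0459), INO80 1 higher of 4, INO80C (0.36, adjusted p = 0.0143), and cohesin and CTCF none called of 3. In the whole lists, the spliceosome had 6 higher and 2 lower of 52, INO80 1 and 1 of 15, and cohesin and CTCF 5 lower and none higher of 15, with a median log2 fold change of −0.17. The calls of EIF1AX, TXNL4A and INO80C were lost in 4, 5 and 3 of the 6 fits with 1 library left out, each time without replicate 2 without doxycycline and without doxycycline replicates 1 and 2. STAG2, of cohesin, had a strong site, with YY1 fold enrichments of 98.3 and 54.0 without and 88.9 and 67.3 with doxycycline.

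Among 5 pluripotency genes with a site, TDGF1, a NODAL co-receptor, fell from 200.8, 187.0 and 192.3 CPM to 95.03, 87.1 and 82.3 CPM (log2 fold change −1.13, adjusted p = 8.32e-06 from edgeR). Its site was weak, with a fold enrichment of 3.99 and 5.90 without doxycycline, no peak in doxycycline replicate 1 and 3.11 in replicate 2. OTX2, a homeobox factor of epiblast cells, rose by a log2 fold change of 0.23 (adjusted p = 0.0393), at a site with 3.99 and 5.16, then 7.14 and 6.98. The call of OTX2 was lost in 5 of the 6 fits with 1 library left out, all but that without doxycycline replicate 1. In all, 1 of the 5 was higher and 2 were lower (median −0.22 on the log2 scale), and of the 25 listed pluripotency genes tested 1 was higher and 10 were lower.

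The largest rises of protein-coding genes with a site, among those with at least 5 CPM on average and no overlap between the groups, were mostly of genes with weak sites, 7 of the 9 described with a mean fold enrichment below 6.73, the median of all sites. LOXL4, a lysyl oxidase that cross-links collagen, went from 1.57, 1.07 and 1.44 CPM to 12.2, 13.8 and 14.5 CPM (log2 fold change 3.34, standard error 0.14, edgeR adjusted p = 1.24e-06), and its site had a fold enrichment of 3.66 and 4.42 without and 6.85 and 6.20 with doxycycline. DTX4, an E3 ubiquitin ligase of the Deltex family, rose from 15.1, 14.5 and 13.7 CPM to 64.3, 69.5 and 73.2 CPM (log2 fold change 2.27). PDZD7 rose by 2.17, with 1 doxycycline library at 31.4 CPM and the others at 14.1 and 12.9. The other rises, from 2.07 to 1.03 on the log2 scale, were of FAM43A, CD1D (a lipid antigen-presenting protein), NGFR (the p75 neurotrophin receptor), SH3BP5, ZHX2 and NR4A2 (a nuclear receptor). The sites of CD1D, NGFR and NR4A2 lay near other transcript starts, at −2884, 2419 and −8639 bp from the canonical TSS (negative is upstream). Of these 9 sites, that of ZHX2 was the strongest (17.9 and 18.5 without, 29.1 and 25.1 with doxycycline), and none held AANATGGC near its summit. The motif was also absent at 4821 of all 6814 sites.

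The largest fall was that of ENSG00000283809, a gene model on chromosome 22, from 1435, 1503 and 1330 CPM to 281.1, 267.3 and 248.2 CPM (log2 fold change −2.42, standard error 0.070, edgeR adjusted p = 1.58e-07), and reads may be shared with a gene that overlaps it. YY1 at its site was 9.64 and 7.37 without and 8.28 and 6.98 with doxycycline. CACNA2D2 fell from 109.8, 110.7 and 92.5 CPM to 34.3, 33.1 and 33.4 CPM (log2 fold change −1.63). YY1 at its site, not centred, was 6.40 and 5.60, then 6.95 and 7.04. ZNF585A, a KRAB zinc finger gene with 2 motifs near the summit, fell from 74.6, 88.4 and 76.0 CPM to 28.7, 31.8 and 32.9 CPM (log2 fold change −1.36, adjusted p = 1.11e-05), and its YY1 site, at 116.7 and 138.6 without doxycycline, kept 122.5 and 128.5 with it. PROM1, the stem cell antigen CD133, fell from 133.0, 138.2 and 133.3 CPM to 53.7, 55.3 and 57.4 CPM (log2 fold change −1.28), and its site (3.82 and 3.10) had no peak in either doxycycline library. The other falls, from −1.57 to −1.19, were of SMIM10L2A (which has a near-identical copy, so that its counts are uncertain), RAB15, VSIG10, EPHA7 (an ephrin receptor), LBH and LFNG (a glycosyltransferase of the Notch pathway). The sites of VSIG10, EPHA7 and LFNG lay near other transcript starts, at −32056, 2628 and 4260 bp from the canonical TSS (negative is upstream). At 8 of the 10 genes both doxycycline libraries had a peak, and the exceptions were PROM1 and SMIM10L2A, which had a peak of 5.50 in replicate 1 alone. Like the rises, the falls were mostly of genes with sites below the median of all sites, all but ENSG00000283809 and ZNF585A. AANATGGC lay near the summit only at CACNA2D2 and ZNF585A.

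**Figure D5:**
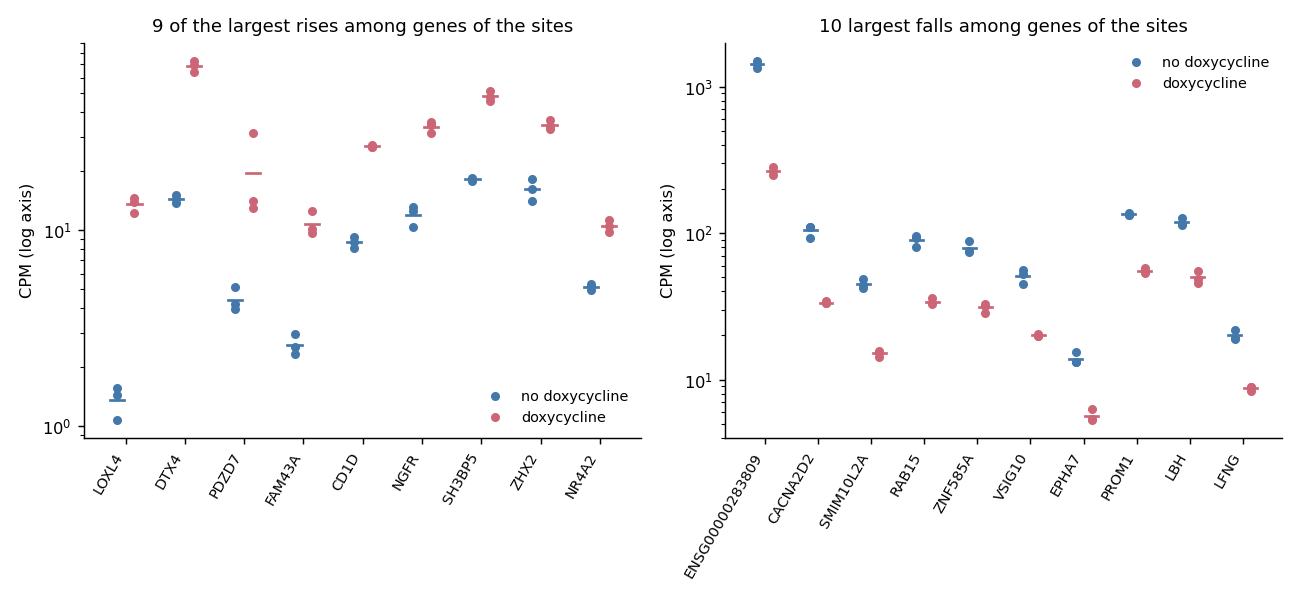
RNA level in CPM, on a log axis, of 9 of the largest rises (left) and the 10 largest falls (right) among protein-coding genes of the sites, with 1 point per library (3 without and 3 with doxycycline) and the mean as a line. The groups do not overlap for any of these genes, which was a condition for choosing them.

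Zinc finger genes stood out among the strongest sites and were grouped after their values had been seen. Genes named ZNF with a number made up 217 of the 5402 protein-coding sites (4.02%, 3.53 to 4.57%), 2.21% of those in the lowest quintile of fold enrichment and 7.80% in the highest, and 127 of the 217 were on chromosome 19. At promoter sites with OCT4 the share was 2.51% (2.11 to 2.98%). In the highest quintile, 62 of 93 ZNF sites held AANATGGC. Of 200 ZNF genes with a site that were tested, 3 were higher and 35 (17.5%) lower with doxycycline, beside 8.97 and 8.48% of all genes tested, with a median log2 fold change of −0.10. ZNF genes of promoter sites with OCT4 alone had 1 higher and 20 lower of 103 tested (19.4% lower) and a median of −0.11. Taking all ZNF genes without a site lacking OCT4, these included, there were 5 higher and 32 lower of 286 tested (11.2% lower), with a median of −0.12. Without replicate 2 or 3 without doxycycline the number of lower genes with a site was 13 and 17, and without doxycycline replicate 1 or 2 19 and 12. ZNF615, at the second strongest site, had 8.45, 9.43 and 8.83 CPM, then 6.42, 7.12 and 7.25 CPM (log2 fold change −0.37, edgeR adjusted p = 0.0268), a call that was lost without any 1 of replicates 2 and 3 without doxycycline and doxycycline replicates 1 and 2. The other 4 genes of the strongest sites were not called, with adjusted p from 0.356 to 0.854.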

How the data were processed

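ChIP-seq of YY1 (4 libraries), OCT4 (2) and H3K9me3 (5) and RNA-seq (6) were used; 6 HiChIP libraries were not used here. The authors aligned ChIP-seq reads to hg19 and deposited 1 peak list per library, whose columns were read, by the usual order of the format, as a fold enrichment ratio and −log10 p and q values; peaks were called per sample, and the caller is not given in the sources used here. The deposited RNA files hold estimated counts and TPM per transcript from kallisto.

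Peaks were intersected with at least 1 bp of overlap, TSSs were those of all transcripts of GENCODE on hg19, and 751 SVA intervals came from the study's supplement. Sequence was read from hg19. Motifs were searched within 100 bp of summits. Fold enrichment depends on library depth, so it was centred for the comparison over all sites. Values at named sites are not centred. Estimated counts were summed per gene (88.2% of 188753 transcripts assigned), rounded, and tested with edgeR 4.0.16 (R 4.3.3; quasi-likelihood, TMM, filterByExpr, 3 against 3 libraries, threshold 0.05); DESeq2 1.42.0 was an alternative. Python 3.11.15 with pandas 2.3.3, SciPy 1.17.1 and pysam 0.24.0 did the rest. Wilson intervals are at 95%. Scripts were tested on simulated data.

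The sites and gene lists were chosen with earlier results of these data known. Named were the 5 sites with the highest mean fold enrichment without doxycycline, the 3 highest without a doxycycline peak, the 10 largest rises and falls (adjusted p under 0.05, groups apart, at least 5 CPM), per list the 2 genes of highest TPM and the 2 of smallest adjusted p, and YY1, YY2, POU5F1 and ZNF10; not all are described, and 1 of the rises is not reported here. Printed stretches were shortened to 29 bases. No column of the authors' own comparisons was used.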

Additional observations from a re-analysis of the deposited data

How the results depend on the processing

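The share of sites with a YY1 peak in both doxycycline libraries, 94.3%, was 95.05% with summits within 500 bp of a TSS, 95.1% with at least 0.5 of the replicate 1 peak covered, 98.2% with a −log10 q of at least 5, 93.2% for replicate 2 peaks and 84.7% with equal numbers of peaks. Without doxycycline replicate 1 or 2, the share with a peak in the remaining doxycycline library was 97.7 or 95.8%. Without replicate 1 or 2 of the libraries without doxycycline, no overlap between replicates was required of the sites. The share with both doxycycline peaks was then 78.1 or 69.2%, over another set of sites. The share with AANATGGC, 29.2%, was 28.2% with the 5′ ends of genes as TSSs, 25.9% with protein-coding transcripts, 32.7% with the coverage rule, 34.3% with the stricter q, 30.4% with no OCT4 peak within 500 bp, and 24.7 and 31.6% in windows of 50 and 150 bp. Genes of the sites numbered 206 to 548 higher and 197 to 463 lower with 1 RNA library left out, and 93 and 121 when changes under 0.5 on the log2 scale were left out. These alternatives were not counted over all genes tested, so they have no share to stand beside. Same-numbered RNA libraries deviated together with correlations of 0.128, 0.080 and −0.00100, and differently numbered ones with −0.127 to 0.060. These values do not settle whether the numbers pair the samples. With the replicate block 552 genes were higher and 500 lower, beside 482 and 408 in the main fit. Only genes that were not called changed sign: CDCA5 (−1.02e-05 with DESeq2 size factors and −1.58e-04 with the replicate block) and YY2 (0.0013 without the filter and 0.0054 with DESeq2). With 1 RNA library left out, the log2 fold change ran from −0.029 to 0.053 for CDCA5, from −0.15 to 0.19 for YY2, from −0.076 to 0.031 for SNRPB, from −0.045 to 0.025 for SARS1, from −0.21 to 0.043 for POU5F1, from −0.12 to 0.068 for ZNF175, from −0.077 to 0.082 for RPS2, from −0.039 to 0.027 for HDAC8, from −0.022 to 0.074 for CCDC174 and from −0.089 to 0.010 for RPL11. The 70 named genes include many that were not called in the main fit and so had no call to lose. Among the 70, 10 lost their call without replicate 2 without doxycycline, and 9 without replicate 3 without doxycycline. The number was 8 and 9 without doxycycline replicates 1 and 2, and 2 and 4 without replicate 1 without and replicate 3 with doxycycline. The cause of these changes was not tested.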
